A study of Mus musculus with 48 samples.

Results

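Transcripts in whole blood and in medial prefrontal cortex (mPFC) were compared within the same 6 unstressed control mice. These mice contributed 12 of the 48 arrays of the series, 1 blood array and 1 mPFC array per mouse. They were female C57BL/6J mice, 17 weeks old, sham-operated and not stressed; the remaining 36 arrays came from mice that were ovariectomized, stressed or both. Blood and mPFC were taken in this series from a mouse model of depression and its controls, and RNA was labelled with Cy3 on one-colour Agilent mouse arrays. A probe was taken into the comparison when Feature Extraction marked it as well above background on all 6 arrays of at least 1 tissue. This rule kept 34618 of 55681 probes, which stand for 16834 of the 22221 gene symbols on the array. Levels are given as the log2 of the processed signal minus the 75th percentile of the same array, and differences are blood minus mPFC, so that a negative difference is higher in mPFC.

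Blood is a suspension of red cells, platelets and white cells. Mature red cells and platelets have no nucleus and carry RNA left from their precursors, with globin and haem synthesis transcripts prominent in the former, while neutrophils, monocytes and lymphocytes transcribe their own genes. The mPFC is a cortical region of glutamatergic and GABAergic neurons, astrocytes, oligodendrocytes, microglia and vessels, and any blood remaining in its vessels is part of the dissected tissue.

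The blood sample was the spun pellet of heparinized blood, and the mPFC was dissected from brain slices. The RNA was purified with a whole blood kit for blood and with a micro column kit for mPFC. The 6 control arrays of a tissue shared 1 slide, and the slide differed between the tissues. Tissue, RNA kit and slide therefore cannot be told apart. In these bulk samples, fewer cells of a type and less RNA per cell cannot be told apart either. With 100 ng of RNA labelled for every array, the 75th percentile of the signal ranged from 81.3 to 132 on blood arrays and from 611 to 689 on mPFC arrays. It was lower in blood in 6 of 6 mice (exact two-sided sign-flip test, p = 0.03125, the smallest p that 6 mice allow). The 100 brightest probes held 32.2 to 39.6% of the summed signal in blood and 12.9 to 13.3% in mPFC. Scaled to the E1A spike-in probes in place of the 75th percentile, every difference was lower by 2.29. Any difference below that size that is called higher in blood here therefore has the opposite sign on the spike-in scale.

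Blood from mouse 2 stood apart from that of the other 5 mice. Its array was also the dimmest, with a 75th percentile of 81.3 and the fewest probes well above background (28126). Whether this had a part in the differences below was not tested. All 13 platelet genes tested were lowest in mouse 2, with a median deviation of -1.26 from the median of the other mice, and so were 14 of 14 B cell genes and 9 of 10 genes of class II antigen presentation. In the same sample 24 of 28 erythroid genes and 13 of 17 neutrophil genes were at their highest, with a median deviation of 0.75 for the erythroid genes. Over all 25868 probes well above background on the 6 blood arrays, mouse 2 was lowest for 33.5% and highest for 35.4%. In mPFC, mouse 1 was highest for 13 of 16 oligodendrocyte lineage genes, with a median deviation of 0.69, and lowest for 8 of 12 genes of brain endothelium, while it was highest for 21.8% and lowest for 25% of all probes.

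**Figure D1:**
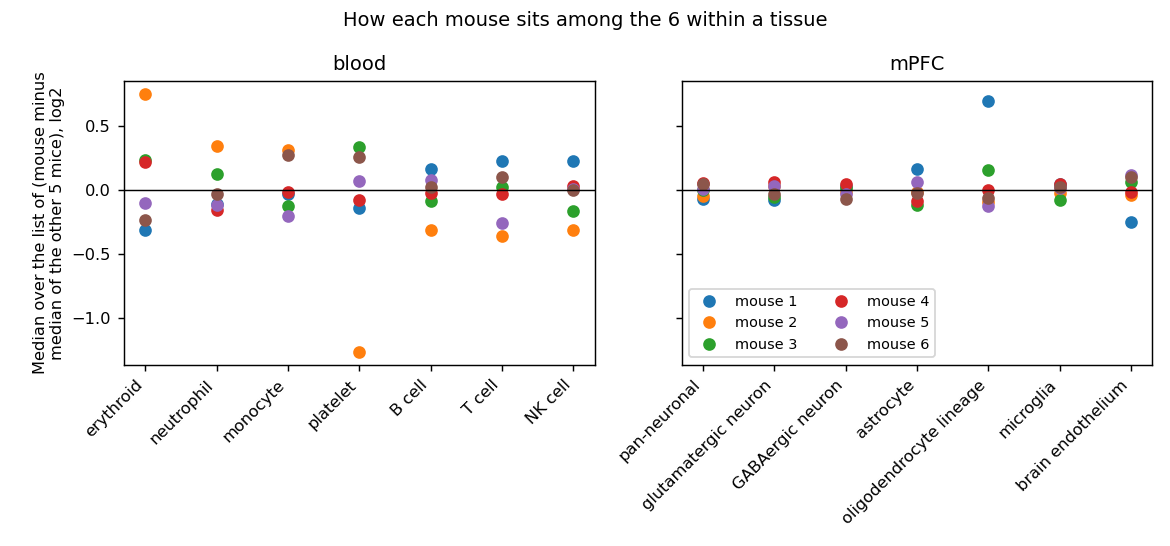
Median over a gene list of the difference between a mouse and the median of the other 5 mice, in log2, for 7 blood cell lists in blood (left) and 7 brain cell lists in mPFC (right). Each point is 1 mouse, and mouse 2 lies at -1.26 for platelet genes and at 0.75 for erythroid genes in blood, while mouse 1 lies at 0.69 for the oligodendrocyte lineage in mPFC.

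Most detected probes were detected in both tissues. On all 12 arrays 21814 probes (11779 genes) were well above background. A further 4720 probes (2042 genes) were well above background on all 6 mPFC arrays and on none of the 6 blood arrays, and 1337 probes (409 genes) on all 6 blood arrays and on none of the 6 mPFC arrays. As shares of the 34618 probes these classes were 13.6% for mPFC only and 3.86% for blood only. The blood arrays were dimmer, and the lowest signal well above background lay between -4.30 and -3.17 in blood and between -6.01 and -4.76 in mPFC. In the 18 mice of the other 3 groups, 474 of the 1337 blood-only probes (35.5%) were again detected on every blood array and on no mPFC array, and 2261 of the 4720 mPFC-only probes (47.9%) showed the mirror pattern.

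**Figure D2:**
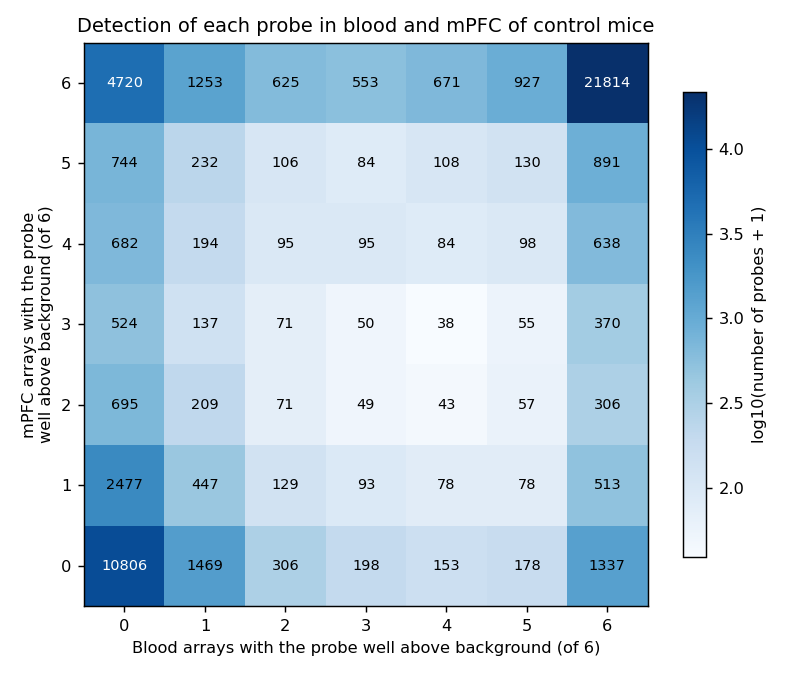
Number of probes by how many of the 6 blood arrays (x axis) and of the 6 mPFC arrays (y axis) marked them as well above background. The 21814 probes in the upper right corner were detected on all 12 arrays, the 4720 in the upper left in mPFC only and the 1337 in the lower right in blood only, and 10806 probes were detected on no array.

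Promoters were described for the genes detected in blood only, since the detection rule did not use sequence. CpG-rich promoters, with an observed to expected CpG ratio over 0.6, are typical of widely expressed genes. RefSeq windows of 250 bases before and 50 bases after the transcription start (GRCm38.p6, the first window listed per gene) were at hand for 334 of the 409 blood-only genes (81.7%), and 31 of these were CpG-rich (9.28%). Over all 27025 genes of the promoter table the share was 36.4%. For genes detected on all 12 arrays a window was at hand for 79.1%, for mPFC-only genes for 76.2% and for genes detected on no array for 78.3%, each under the minimum of 80% set for such a check, so a comparison between the classes is void. Of the windows at hand for genes detected on no array 9.85% were CpG-rich, so the low share is not given as a trait of blood-only genes. This share and those below for genes detected on no array are described and not compared. The letters AGATAA are 1 form of the sequence read by GATA factors, and other forms were not searched. They lay on either strand in 73 of the 334 blood-only windows (21.9%). The share was 11.4% in all windows of the table and 17.6% in those of genes detected on no array. Among the blood cell lists, windows were at hand for at least 80% of the platelet, neutrophil and NK cell genes. AGATAA lay in 4 of 11, 3 of 17 and 0 of 11 of these windows, in that order. The letters TATAAA, searched on the strand of the gene between 40 and 16 bases before the start, lay in 4.79% of the blood-only windows, in 2.22% of all windows and in 5.58% of those of genes detected on no array. A match is a description of the sequence and not a site of binding.

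The 250 bases upstream of 9 genes named in the results are printed to show how their CpG content varies, with each CpG in capitals. Alas2 (chrX:150547167-150547416 (plus strand)), Hba-a1 (chr11:32283422-32283671 (plus strand)), Ppbp (chr5:90768268-90768517 (plus strand)), S100a9 (chr3:90695722-90695971 (minus strand)) and Tubb1 (chr2:174450345-174450594 (plus strand)) were higher in blood. Tubb3 (chr8:123411303-123411552 (plus strand)), Stmn3 (chr2:181314501-181314750 (minus strand)) and Slc17a7 (chr7:45163671-45163920 (plus strand)) were higher in mPFC, and Ppia (chr11:6415617-6415866 (plus strand)) was bright in both.
Alas2: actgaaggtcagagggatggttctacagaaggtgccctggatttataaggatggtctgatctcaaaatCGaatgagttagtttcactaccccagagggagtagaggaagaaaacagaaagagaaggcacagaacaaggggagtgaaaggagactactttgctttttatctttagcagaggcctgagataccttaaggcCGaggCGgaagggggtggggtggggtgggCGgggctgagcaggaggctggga
Hba-a1: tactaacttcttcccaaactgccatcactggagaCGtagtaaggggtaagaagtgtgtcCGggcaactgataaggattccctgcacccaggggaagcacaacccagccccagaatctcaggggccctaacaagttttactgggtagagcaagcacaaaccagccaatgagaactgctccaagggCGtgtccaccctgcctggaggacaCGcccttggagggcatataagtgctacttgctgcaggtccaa
Ppbp: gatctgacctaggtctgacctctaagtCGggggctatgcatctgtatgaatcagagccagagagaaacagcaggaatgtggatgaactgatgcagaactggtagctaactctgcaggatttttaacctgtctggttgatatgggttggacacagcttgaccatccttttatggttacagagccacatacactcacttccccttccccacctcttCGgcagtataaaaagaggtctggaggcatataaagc
S100a9: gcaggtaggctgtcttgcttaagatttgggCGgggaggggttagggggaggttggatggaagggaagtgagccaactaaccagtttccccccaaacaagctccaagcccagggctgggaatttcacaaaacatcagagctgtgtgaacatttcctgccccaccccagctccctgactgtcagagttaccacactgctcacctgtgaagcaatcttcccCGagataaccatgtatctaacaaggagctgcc
Tubb1: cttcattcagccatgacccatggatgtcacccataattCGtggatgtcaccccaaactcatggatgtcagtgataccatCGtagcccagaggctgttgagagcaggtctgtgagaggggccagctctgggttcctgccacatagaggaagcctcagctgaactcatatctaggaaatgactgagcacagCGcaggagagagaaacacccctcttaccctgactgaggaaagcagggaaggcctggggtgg
Tubb3: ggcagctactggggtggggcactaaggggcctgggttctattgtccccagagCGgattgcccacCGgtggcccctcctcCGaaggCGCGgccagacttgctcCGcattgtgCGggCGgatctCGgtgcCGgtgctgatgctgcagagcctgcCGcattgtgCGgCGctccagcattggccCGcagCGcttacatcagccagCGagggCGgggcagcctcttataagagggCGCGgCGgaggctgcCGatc
Stmn3: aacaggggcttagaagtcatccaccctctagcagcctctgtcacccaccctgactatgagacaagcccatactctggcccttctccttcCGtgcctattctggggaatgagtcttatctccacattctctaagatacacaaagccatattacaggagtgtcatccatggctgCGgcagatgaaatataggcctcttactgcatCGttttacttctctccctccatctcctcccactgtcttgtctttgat
Slc17a7: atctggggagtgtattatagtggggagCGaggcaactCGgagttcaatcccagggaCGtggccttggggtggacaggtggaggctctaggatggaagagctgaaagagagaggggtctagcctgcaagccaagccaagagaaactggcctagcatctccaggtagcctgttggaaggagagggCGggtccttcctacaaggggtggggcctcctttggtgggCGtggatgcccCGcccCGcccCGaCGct
Ppia: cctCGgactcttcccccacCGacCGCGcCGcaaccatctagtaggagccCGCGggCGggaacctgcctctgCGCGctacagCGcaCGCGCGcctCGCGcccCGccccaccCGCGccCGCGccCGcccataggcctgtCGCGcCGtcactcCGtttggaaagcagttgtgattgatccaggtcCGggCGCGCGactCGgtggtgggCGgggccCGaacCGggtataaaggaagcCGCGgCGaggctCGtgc
The stretch printed for Ppia holds 38 CpG and that for Tubb3 holds 21, while the 5 blood genes hold 2 to 4 each. Slc17a7 holds 9 and Stmn3 holds 3. The platelet and neuronal tubulin genes differ in this property, with an observed to expected ratio over the full window of 0.128 for Tubb1 and 0.765 for Tubb3. AGATAA was found in the windows of Alas2, S100a9 and Stmn3, and TATAAA in those of Ppbp and Ppia.

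Nearly every transcript differed between the tissues. In a paired limma model with the mouse as a block, 16028 probes were higher in blood (46.3% of those tested) and 15612 were higher in mPFC (45.1%) at an adjusted p under 0.05, together 31640 (91.4%). For 14984 probes (43.3%) every blood value lay above every mPFC value, and for 14117 (40.8%) every mPFC value lay above every blood value. Those over 2-fold as well numbered 13323 (38.5%) and 12513 (36.1%). Detection in 1 tissue only was itself taken from this contrast, so the 1337 blood-only and 4720 mPFC-only probes give no separate support (all of the former were called higher in blood, and of the latter 4448 were called higher in mPFC and 23 higher in blood). Among the 21814 probes detected on all 12 arrays 11307 were higher in blood (51.8%) and 8648 in mPFC (39.6%). The median size of a difference was 2.03 over all tested probes, against a median standard error of 0.131. Of the calls made in control mice, 97.9% of those higher in blood and 97.5% of those higher in mPFC were called in the same direction in the other 18 mice, and 3 and 81 probes respectively in the opposite direction. The split of the calls moved with the scaling: 50.7% of them were higher in blood here, 62.8% after normexp background correction and 23.4% on the spike-in scale. Taken as genes, each by its brightest tested probe, 6244 of 16834 were higher in blood (37.1%) and 9213 in mPFC (54.7%), with a median difference of -0.64. The counts for gene lists are to be read against these shares.

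**Figure D3:**
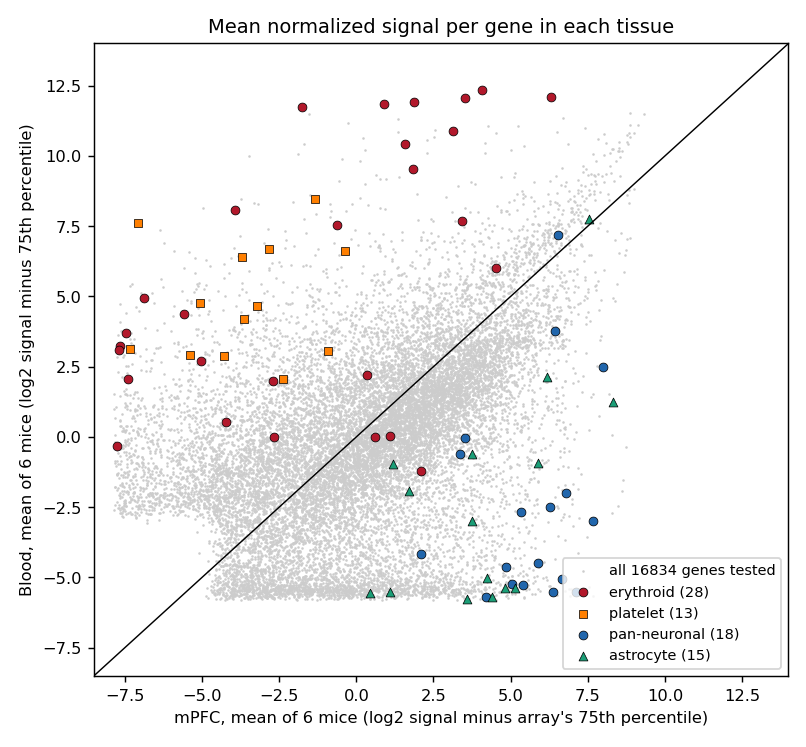
Mean level of 16834 genes in blood (y axis) and mPFC (x axis) over 6 mice, as log2 values above or below the array's 75th percentile, with the line of equality. Erythroid (28) and platelet (13) genes lie mostly above the line and pan-neuronal (18) and astrocyte (15) genes mostly below it.

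Genes of the red cell lineage and of neutrophils were among those with the largest differences on all 12 arrays. Alas2, which makes the first committed intermediate of haem in erythroid cells, had levels of 11.45 to 12.24 in blood (median 11.69) and -2.22 to -0.91 in mPFC (median -1.78). No blood value came within the range of mPFC, and the difference was 13.49 ± 0.11 (SE, n = 6 mice, adjusted p = 3.42e-10). Its probe lies at chrX:147004993-147005052 in the mm9 coordinates of the array files. Among the genes next to it in size were the alpha globin pseudogene Hba-ps4 (13.46), Unc93a2 (13.49), the imino acid transporter gene Slc6a20a (8189.6-fold), the neutrophil gene S100a9 (12.19) and Tent5c, which encodes a poly(A) polymerase (12.10).

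Of 28 erythroid genes tested, 25 were higher in blood and 3 in mPFC, with a median difference of 7.97. Slc4a1, the anion exchanger of the red cell membrane, was 4096.5-fold higher (SE 0.25 on the log2 scale), and Trim10, a gene of late erythroid maturation, was not well above background on any mPFC array and was at least 1492-fold higher in blood. For a probe under the background mark on all 6 arrays of a tissue the fold is a lower bound, computed from the mean of the other tissue and, on each dim array, the higher of the probe's own value and the lowest value well above background, and printed rounded. A gene detected on only some arrays of a tissue has values there that partly lie under the mark, so its difference is less certain in size. This holds for the genes marked with a count of arrays and for S100a8 and Ccr7 (3 of 6 mPFC arrays), H2-Aa (4), Nlrc5, Tap1, Aqp1, Folr1 and Rnase1 (5), and for Pdyn and Penk (3 of 6 blood arrays), Syt1, Prtn3 and Drd2 (4), and Slc4a4 and Epb41l2 (5). The globin genes Hbb-bs (10.95), Hbb-b2 (10.06), Hbb-bt (8.55), Hba-a1 (8.31) and Hba-a2 (5.78) were higher in blood, although near-identical copies mean that their probes may not tell them apart. Globin transcripts were measured in mPFC too. Hba-a1 had levels of 3.59 to 4.74 in mPFC (median 4.07) and 12.11 to 12.78 in blood (median 12.32), without overlap. In unscaled signal, mPFC held 0.0521% of the blood signal for Alas2, 0.146% for Slc4a1, 1.89% for Hba-a1 and 10.9% for Hba-a2. These probe signals did not stand in 1 ratio between the tissues, and whether the transcripts did was not tested. The 3 erythroid genes higher in mPFC were Sptb, the beta spectrin of red cells (-3.32 ± 0.28), Add2, an adducin of the membrane skeleton (-1.06 ± 0.19), and the erythropoietin receptor Epor (-0.60 ± 0.10).

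All 13 platelet genes tested were higher in blood, with a median difference of 8.29. The smallest of these differences, that of Gp1bb, was 3.97, and 1 of the 3 Gp1bb probes was higher in mPFC. Ppbp, which encodes platelet basic protein, had the largest bound of any gene detected in blood only. It measured 5.93 to 8.18 in blood (median 7.96) and was not well above background on any mPFC array, and was at least 9150.5-fold higher in blood, a fold set against the dimmest signal that the mPFC arrays could mark. Gp1ba, a subunit of the von Willebrand factor receptor, was at least 421.8-fold higher, and Treml1, a receptor of platelet granules, differed by 10.11 ± 0.22. The lowest blood value of Ppbp was that of mouse 2, and the next lowest was 7.52.

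White cell genes followed the same direction. Of 18 neutrophil genes 17 were higher in blood (median 5.80), led by the calprotectin genes S100a9 (12.19 ± 0.32) and S100a8 (11.99 ± 0.32) and by Retnlg, at least 1565-fold higher. Prtn3, a protease of primary granules, was the exception at 0.06 ± 0.20 (adjusted p = 0.786), and Csf3r, the G-CSF receptor, differed by 1.70 ± 0.14, with the sign turned on the spike-in scale. All 14 B cell genes tested (median 7.07), 20 T cell genes (5.91) and 13 NK cell genes (6.25) were higher in blood. Ms4a1, which encodes CD20, was at least 2080-fold higher, the B cell gene Fcrla at least 654.2-fold, the T cell receptor subunit gene Cd3d at least 695.9-fold, the coreceptor gene Cd8b1 at least 898.5-fold and the NK receptor gene Klra8 at least 112-fold. Spib, a transcription factor of B cells, was well above background in the mPFC of mouse 5 alone, where it measured -1.14, and Cd79a, a part of the B cell receptor, reached 0.04 in the mPFC of mouse 6 against -1.97 to -1.75 in the other mice. The chemokine receptor gene Ccr7 differed by 11.06 ± 0.18, the NK receptor gene Klrd1, detected on 1 of 6 mPFC arrays, by 8.70 ± 0.31 and the granzyme gene Gzma by 8.33 ± 0.11. Outside these lists, the lymphocyte genes Ms4a4b (at least 1622-fold) and Cd2 (at least 1570-fold) were among the blood-only genes with the largest bounds.

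Monocyte genes were less uniform, with 10 of 13 higher in blood, 2 higher in mPFC and a median of 1.61 that turned to -0.67 on the spike-in scale. Ccr2, a chemokine receptor of classical monocytes, was at least 86.1-fold higher in blood, and Lyz2, which encodes lysozyme, and the clotting factor gene F13a1 differed by 7.37 ± 0.11 and 5.84 ± 0.19. Nr4a1, a transcription factor of nonclassical monocytes that neurons also induce, was higher in mPFC (-1.65 ± 0.22), as was the endotoxin coreceptor gene Cd14 (-0.59 ± 0.17, which became 0.51 after normexp). Csf1r, the growth factor receptor that monocytes share with microglia, differed by 0.52 ± 0.11, and its sign turned on the spike-in scale and after normexp.

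The genes of antigen presentation went in both directions. All 10 class II genes were higher in blood (median 7.97), among them H2-Aa (10.19 ± 0.27), H2-Ab1 (9.78 ± 0.21) and H2-Eb1 (8.85 ± 0.13). Of 13 class I genes 9 were higher in blood, including the class I regulator Nlrc5 (6.97 ± 0.13), the peptide transporter gene Tap1 (5.77 ± 0.11), the heavy chain gene H2-D1 (5.55 ± 0.08) and the light chain gene B2m (4.33 ± 0.12). The chaperones of the endoplasmic reticulum that load class I molecules were higher in mPFC, with differences of -3.27 for Canx, -1.57 for Pdia3 and -0.86 for Calr, as was the proteasome subunit gene Psmb10 at -0.64.

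In mPFC the neuronal lists lay on the other side. Of 18 pan-neuronal genes 17 were higher in mPFC, with a median difference of -9.14, and 8 of them were not well above background on any blood array. Stmn3, which encodes a stathmin of neurons, measured up to 7.18 in mPFC (median 7.11) and was at least 1757-fold higher there than in blood. Stmn2 was at least 1059-fold higher, and the growth cone gene Gap43, detected on 1 of 6 blood arrays, differed by -11.72 ± 0.31. Of 15 glutamatergic genes 13 were higher in mPFC (median -6.72), with the cortical transcription factor gene Tbr1 at least 461.1-fold, the AMPA receptor gene Gria1 at least 158.2-fold and Neurod6 at least 120.3-fold higher. Of 15 GABAergic genes 13 were higher in mPFC (median -4.89), with the vesicular GABA transporter gene Slc32a1 at least 741.1-fold and somatostatin, Sst, at least 767.5-fold higher. Cck, a neuropeptide gene of interneurons that pyramidal cells express as well, had the largest difference towards mPFC among genes detected on all 12 arrays (-10.94 ± 0.12). Among the next in size were the matricellular protein gene Sparcl1 (-10.51), the reticulon gene Rtn1 (-10.18), the prohormone processing enzyme gene Cpe (-9.11) and Slc12a5, which encodes the neuronal chloride exporter (-9.03). Among genes detected in mPFC only the largest bounds were those of Ndrg4 (at least 3949.9-fold), Tspan7 (2579.8-fold), Fbxl16 (2378-fold), the chromogranin gene Chgb (2045-fold) and the fractalkine gene Cx3cl1 (1705-fold).

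Of 15 astrocyte genes 14 were higher in mPFC (median -6.75). The sodium pump subunit gene Atp1b2 was at least 452.4-fold, S100b at least 364.4-fold and the glutamate transporter gene Slc1a3 at least 267.6-fold higher. Of 16 oligodendrocyte lineage genes 12 were higher in mPFC (median -3.17), including the transcription factor gene Olig1 (-7.91 ± 0.27, detected on 1 of 6 blood arrays), Pdgfra, the receptor of precursor cells (at least 30.7-fold), and the tight junction gene Cldn11 (-4.99 ± 0.22). Of 14 microglial genes 10 were higher in mPFC (median -1.58), with the complement genes C1qc and C1qa at least 72.7-fold and 51.4-fold higher and the transcription factor gene Sall1 at least 4.09-fold. Of 12 genes of brain endothelium 8 were higher in mPFC (median -2.24), with the tight junction gene Cldn5 at -5.69 ± 0.14, the adhesion gene Cdh5 at least 7.90-fold higher and the VEGF receptor gene Flt1 at -4.24 ± 0.13.

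**Figure D4:**
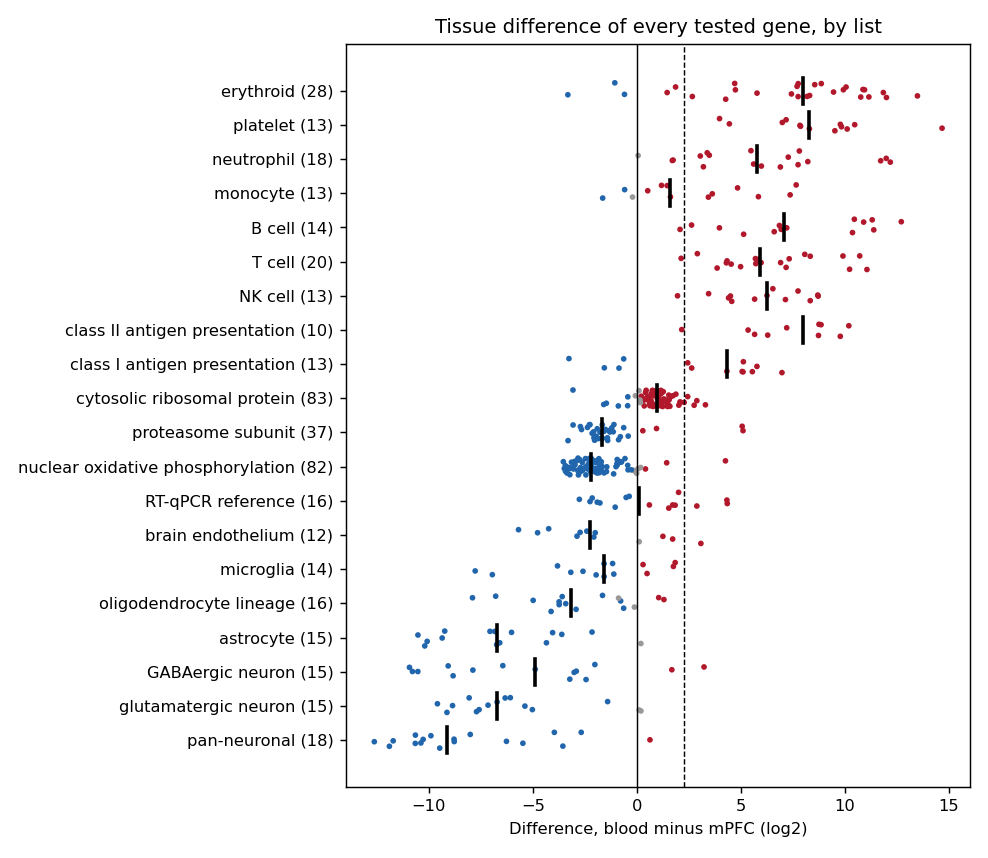
Difference between blood and mPFC (log2, blood minus mPFC) of every tested gene in 20 lists, with the number of genes in parentheses, red points higher in blood, blue points higher in mPFC and grey points not called. Black bars are list medians, the solid line is no difference on the scale used and the dashed line is no difference on the spike-in scale, 2.29 to the right.

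Some markers of each tissue were detected in the other. Well above background on all 6 blood arrays were 8 of 18 pan-neuronal genes, 3 of 15 glutamatergic, 5 of 15 GABAergic, 7 of 15 astrocyte, 10 of 16 oligodendrocyte lineage, 11 of 14 microglial and 9 of 12 endothelial genes. On all 6 mPFC arrays these were 20 of 28 erythroid genes, 8 of 18 neutrophil, 11 of 13 monocyte, 8 of 14 B cell, 10 of 20 T cell, 5 of 13 NK cell, 9 of 13 platelet and 7 of 10 class II genes. Of all 22221 genes on the array, 13035 (58.7%) had a probe so marked on all 6 blood arrays. On all 6 mPFC arrays this held for 15578 genes (70.1%). The list counts, taken from 1 probe per tested gene, are to be read beside these shares and not as a trait of the markers. Several genes used as markers of brain cells had blood signals as high as those in mPFC. Snap25, which encodes a SNARE protein of the synapse, measured 6.74 to 7.47 in blood (median 7.25) and 6.42 to 6.82 in mPFC (median 6.51). The ranges overlapped, and the difference of 0.63 ± 0.14 was called higher in blood (adjusted p = 0.00342), with the sign turned after quantile normalization and on the spike-in scale and the call lost after normexp (0.12). Its probe lies at chr2:136607709-136607768 (mm9). Nrgn, which encodes the postsynaptic protein neurogranin, measured 3.93 to 5.52 in blood (median 5.38) and 4.75 to 5.24 in mPFC (median 4.90). The difference of 0.19 ± 0.22 was not called, and without mouse 2, whose blood held the lowest value, it was 0.43 (adjusted p = 0.0163). The kinase gene Camk2a differed by 0.11 ± 0.16 and was not called. Clu, which encodes clusterin, an astrocyte product, measured 6.68 to 8.20 in blood (median 7.86) and 7.43 to 7.68 in mPFC (median 7.55). Here too the lowest blood value was that of mouse 2, and the difference was 0.19 ± 0.18 with that mouse and 0.38 without it (adjusted p = 0.0142). On the spike-in scale the levels of these 4 genes were lower in blood.

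Among glial and vascular markers, the myelin genes Mog (1.30 ± 0.12) and Cnp (1.05 ± 0.14) were higher in blood, and the transcription factor gene Sox10 was not called (-0.12 ± 0.12). Of the microglial list, Siglech (1.84 ± 0.13), the ADP receptor gene P2ry12 (1.75 ± 0.25), the complement gene C1qb (0.49 ± 0.11) and Fcrls (0.29 ± 0.10) were higher in blood, and of the endothelial list the adhesion genes Pecam1 (3.08 ± 0.11) and Esam (1.72 ± 0.23) and the surface antigen gene Ly6c1 (1.25 ± 0.12). Of these genes called higher in blood, all but Pecam1 turned sign on the spike-in scale, and Fcrls lost its call without mouse 4 or mouse 5 (adjusted p = 0.0679 and 0.0594). P2ry12 measured 1.68 in the blood of mouse 2 and 3.09 to 3.48 in the other mice. The blood levels of P2ry12, Esam, Nrgn, Clu and Cnp were lowest in mouse 2, as were those of the 13 platelet genes. Those of Camk2a, C1qb, Fcrls and Mog were highest in mouse 2. Of all probes well above background on every blood array, mouse 2 was lowest for 33.5% and highest for 35.4%. Whether platelet RNA had a part in these signals was not tested.

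**Figure D5:**
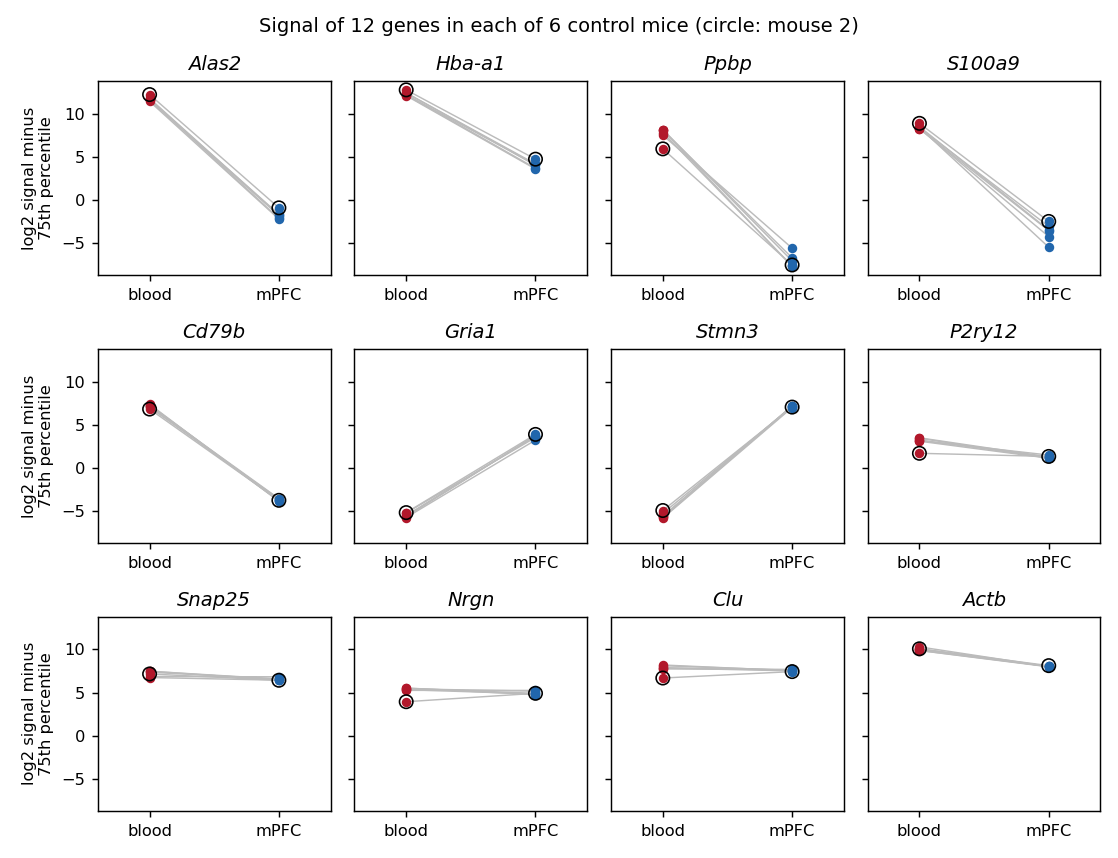
Level of 12 genes in the blood (red) and mPFC (blue) of each of 6 control mice, in log2 units relative to the 75th percentile of the array, with lines joining the arrays of 1 mouse and a black circle around mouse 2. Alas2, Hba-a1, Ppbp, S100a9 and Cd79b are higher in blood, Gria1 and Stmn3 higher in mPFC, P2ry12 is higher in blood in all 6 mice, Actb is higher in blood by 2.00, and Snap25, Nrgn and Clu overlap between the tissues.

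Different probes of the same gene did not always give the same direction. Of 4994 genes with more than 1 tested probe, 1071 (21.4%) had probes called in opposite directions. For the interneuron transcription factor gene Lhx6, the brighter probe, at chr2:35937644-35937703 (mm9), gave 1.68 ± 0.17, while the probe at chr2:35937470-35937529 was not well above background on any blood array and differed by -5.00. Siglech had 1 probe higher in blood and 2 higher in mPFC, at -2.75 and -5.15. The brightest probe of Ank2 differed by 6.78, while its other 2 probes differed by -2.86 and -10.14. These genes are therefore uncertain in direction.

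Members of gene families are given side by side, without a test of a family. Alas1, the isoenzyme that starts haem synthesis in other cells, differed by -2.23 against 13.49 for Alas2, although another of its probes gave 2.33. The neuronal globin Ngb was at least 6.53-fold higher in mPFC and cytoglobin, Cygb, detected on 1 of 6 blood arrays, differed by -9.14 ± 0.50. The widely expressed alpha spectrin Sptan1 differed by -2.53. The beta spectrins Sptb, Sptbn1 (-1.15, with 1 of its 3 probes higher in blood) and Sptbn4 (-6.54) were called higher in mPFC. The protein 4.1 gene Epb41 was higher in blood (9.95), and its relatives Epb41l1 (-3.01), Epb41l2 (-0.99, which became 0.60 after normexp and lost its call without mouse 1, adjusted p = 0.0552) and Epb41l3 (at least 227.3-fold) were higher in mPFC. Ank1 was higher in blood (4.70). Ank3 was higher in blood (1.49) by the brightest of its 3 probes, but is uncertain in direction. Its other 2 probes differed by -5.97 and -7.92 and were not well above background on any blood array. Of the adducins, Add3 was higher in blood (0.86, with the sign turned on the spike-in scale) and Add1 in mPFC (-0.74). In the anion and bicarbonate transporters, Slc4a1 and Slc4a2 (4.09) were higher in blood and Slc4a3 (at least 291-fold), Slc4a4 (-4.99) and Slc4a10 (at least 130.1-fold) in mPFC. Of the carbonic anhydrases, which hydrate carbon dioxide, Car1 (2.66), Car2 (4.27), Car7 (4.41), Car10 (2.41, with 1 of its 3 probes higher in mPFC) and Car4 (0.84, with its other probe at -3.62 and the sign turned on the spike-in scale) were higher in blood and Car8 (at least 5.26-fold) and Car11 (-6.18) in mPFC.

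Genes of vesicle release were found on both sides. Stx11, Unc13d and Stxbp2, which serve granule release in blood cells, were higher in blood by at least 531.5-fold for Stx11 and by 4.61 and 2.14 for the others. Stx1a (-6.30), Unc13a (at least 6.50-fold) and Unc13b (-7.01, detected on 1 of 6 blood arrays), which serve the synapse, were higher in mPFC. Stxbp3 (0.86) and Stx3 (0.48) were higher in blood, Stx4a (-0.50) in mPFC, where for Stx3 and Stx4a 1 other probe went the opposite way, and Stx7 was not called (-0.00 ± 0.09). On the spike-in scale Stxbp2, Stxbp3 and Stx3 turned, and Stx3 did so after quantile normalization as well. Of the vesicle SNAREs, Vamp8 was higher in blood (2.41) and Vamp2 in mPFC (-5.10 by its brighter probe and 3.86 by the other), while Vamp1 (-0.16) and Vamp3 (0.09) were not called. Snap23, the relative of Snap25 outside neurons, was higher in blood (1.57, turned on the spike-in scale), and Snap29 (0.18) was not called. The complexin gene Cplx1 was at least 554.9-fold higher in mPFC and Cplx2 (-1.18), Syt1 (-10.66) and Syt11 (-6.47) were higher there too, but Cplx3 was higher in blood (7.75 ± 0.20).

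In the cytoskeleton, the platelet tubulin Tubb1 (4.45) and Tubb6 (2.49) were higher in blood, and Tubb3 (-8.01), Tubb2b (-4.74), Tubb5 (-2.99), Tubb2a (-2.35) and Tubb4a (-1.22) in mPFC. The kindlin Fermt3 of blood cells differed by 6.65, and Fermt2 was at least 42-fold higher in mPFC. The actinin Actn1 differed by 0.62 (turned on the spike-in scale) and Actn4 by -0.94, and Actn2 was at least 5.99-fold higher in mPFC. Actn3 was below background in blood and too dim in mPFC to give a bound. Of the Rac GTPases, Rac2 was higher in blood (7.23), Rac3 in mPFC (-2.01) and Rac1 was not called (0.25 ± 0.19), but was called without mouse 2 at 0.46 (adjusted p = 0.00123). Glycolytic genes were mostly higher in mPFC, by sizes that varied between isoforms. Aldoc differed by -7.06 and Aldoa by -1.74, Eno2 by -8.79 and Eno1 by -0.52, Ldhb by -7.13 and Ldha by -1.82, and Pfkm by -6.69 with Pfkp at -3.36 and Pfkl at -3.15. Pyruvate kinase divided into Pklr of red cells (4.80, detected on 1 of 6 mPFC arrays) and Pkm (-1.40). Hexokinase Hk3 was higher in blood (3.55), and Hk2 was not called (-0.01 ± 0.11). Hk1 is uncertain: its brightest probe (0.71, turned after quantile normalization and on the spike-in scale) is placed on chromosome 5, apart from its other 2 probes on chromosome 10, which were higher in mPFC (-1.77 and -2.11). The glucose transporters were higher in mPFC for Slc2a1 (-2.41) and in blood for Slc2a3 (0.77, turned on the spike-in scale).

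Shared transcripts were rarer than shared detection. For 5709 probes (16.5%) the 95% interval of the difference lay within 2-fold, and among probes detected on all 12 arrays these were 4849 (22.2%). The genes nearest to no difference were Ubl7, Saal1, Sirt6, Coro7, Bms1 and Id3, chosen among genes whose 95% interval lay within 0.5 of 0 on the log2 scale. Sirt6, a histone deacetylase, measured 0.55 to 0.89 in blood (median 0.68) and 0.59 to 0.82 in mPFC (median 0.72). Such near equality holds on the 75th percentile scale, and on the spike-in scale each was lower in blood by 2.29.

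Of 16 genes commonly used as RT-qPCR references, 3 met the 2-fold interval criterion above for shared transcripts, as did 17.7% of all genes. All 16 were called different, as were most genes (37.1% of all genes higher in blood and 54.7% in mPFC). Of the 16 references 8 were called higher in each tissue, with a median of 0.11. Among those higher in blood were Polr2a (4.34), B2m (4.33), Rplp0 (2.88), Actb (2.00), Gusb (1.72), Rps29 (1.53) and Eef1a1 (0.60), of which the last 4 turned sign on the spike-in scale, Actb, Rps29 and Eef1a1 turned after quantile normalization, and Gusb had another probe at -1.29. Among those higher in mPFC were Hprt (-2.77), Pgk1 (-2.26), Ywhaz (-2.15), Sdha (-1.91), Gapdh (-1.78), Ppia (-0.52) and Tbp (-0.37). The smallest difference was that of Tbp, which measured -0.50 to -0.15 in blood and -0.02 to 0.04 in mPFC. The Gapdh probe used maps outside the gene, to chr7:59003199-59003257 (mm9), and 7 of its 8 probes were higher in mPFC.

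Genes known from both blood and brain were measured in both. The autophagy genes Bnip3l (5.93) and Gabarapl2 (4.16), the surface antigen gene Cd24a (8.66), the adaptor gene Tyrobp (3.36) and the actin regulator gene Coro1a (2.08, turned on the spike-in scale) were higher in blood. App (-7.15), Prnp (-4.72), Apoe (-3.44), Aif1 (-2.94) and Thy1 (-2.55) were higher in mPFC. Over these 17 genes, 9 were higher in blood and 8 in mPFC.

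Ribosomal, respiratory and proteasome genes are given by list. Of 83 cytosolic ribosomal protein genes 73 were higher in blood and 6 in mPFC, with a median of 0.96. This direction rested on the scale, since the median was 0.04 after quantile normalization and -1.33 on the spike-in scale. Rps15 (3.29) and Rplp0 were the highest in blood, and Rps4l (-3.08), Rps27l (-1.60) and Rpl22l1 (-1.47) were higher in mPFC. Of 82 nuclear genes of oxidative phosphorylation 74 were higher in mPFC (median -2.19), with Ndufa5 at -3.54 and Ndufc2 at -3.49, and 3 were higher in blood, among them Atp5j2 (4.26, with its other probe higher in mPFC) and the muscle isoform Cox7a1 (1.43, turned on the spike-in scale). Of 37 proteasome genes 33 were higher in mPFC (median -1.67), with Psmc5 at -3.31. The 4 higher in blood included the immunoproteasome subunits Psmb9 (5.10 ± 0.10) and Psmb8 (5.06 ± 0.07), and Psmd4 (0.94, turned on the spike-in scale).

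Markers of neighbouring or contaminating tissue were mixed. Of 9 striatal genes 7 were higher in mPFC, with tachykinin, Tac1, at least 170.4-fold higher, Pdyn at -6.75 and Penk at -6.21. The dopamine receptor gene Drd2 was called higher in blood (1.18, turned on the spike-in scale). It was well above background on every mPFC array but on only some blood arrays, so its direction is uncertain. Of 8 choroid plexus genes 5 were tested, with the water channel gene Aqp1 (7.15) and Folr1 (5.57) higher in blood and Kl (at least 1.30-fold, reversed after normexp) in mPFC. Of 12 genes of exocrine pancreas 9 were tested, with Cela3b (7.59, detected on 1 of 6 mPFC arrays), Cpa1 (at least 9.55-fold) and Clps (3.89) higher in blood and Amy2a5 (at least 1.27-fold, reversed after normexp) in mPFC. The liver genes Fgb (at least 70.2-fold), Ahsg (at least 99.9-fold) and Serpina1a (2.46) were higher in blood and Trf (-2.10) in mPFC. The fat cell gene Fabp4 (4.61, detected on 1 of 6 mPFC arrays) was higher in blood and the lipase gene Lpl (-2.26) in mPFC.

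Of the 14 genes that the study carried over to patients, 10 were higher in blood and 3 in mPFC, against 37.1% and 54.7% of all genes. All 14 were well above background on every blood array. The study chose these genes from changes in blood, among probes called present in every sample it assayed. Their detection in blood was therefore largely set by that choice, which may also tilt the split, so neither is a result about these genes. The amino acid transporter gene Slc36a1 measured 2.83 to 3.33 in blood (median 3.04) and -1.30 to -1.10 in mPFC (median -1.24), without overlap. Its difference was 4.27 ± 0.09, and those of Sigirr, Rnase1, Styxl1, Rps2, Fyco1, Rpl23a, Banp and Arfrp1 were 4.24, 2.81, 1.70, 1.16, 1.16, 1.12, 0.36 and 0.36. The lipid droplet gene Cidec was not well above background on any mPFC array and was at least 11.3-fold higher in blood. Higher in mPFC were Rab11fip4 (-2.49), Bcl11b (-1.50) and Slc35f2 (-0.76), and Nipal3 was not called (0.06 ± 0.16). On the spike-in scale the last 6 genes named as higher in blood, Styxl1 to Arfrp1, turned sign. Banp lost its call when mouse 3, 4 or 5 was left out (adjusted p = 0.097, 0.101 and 0.0951).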

How the data were processed

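Arrays were scanned once per sample, and the scanner intensities deposited by the authors came from Feature Extraction 10.7.3.1, which subtracts background and corrects trends within each array. Per the file headers, each spot also carries 0 or 1 marks for detection, saturation and outliers, other than intensity. No spot of the 12 arrays was saturated. The authors also deposited a table of log2 values scaled to the 75th percentile, which served as an alternative.

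The log2 processed signal minus the 75th percentile of each array was averaged over spots of a probe, without control and outlier spots. Paired differences were fitted in R 4.3.3 with the package limma 3.58.1 (lmFit and eBayes with the mouse as a block, Benjamini-Hochberg over 34618 probes, adjusted p under 0.05). In simulated data 200 of 34618 probes were changed. The fit recovered 73% of probes changed by a log2 of 1 and 95% of those changed by 2, with 10 false calls. In the real data 91.4% of probes were called, so these rates do not give the recovery there. Precision is limited by the number of arrays. A gene was represented by its brightest tested probe, and RefSeq accessions gave current symbols for 26762 of 55681 probes, while the others kept the name in the files. Named genes were the 3 with the largest differences in each list, genes called against the tissue of their list, members of gene families and of the reference lists, and those with the largest and smallest differences; a few further list members were added after their values were seen. The members and lists were chosen with earlier results of these data known. Promoter windows came from RefSeq (GRCm38.p6), and probe positions are those of the array files (mm9). Alternatives were another scaling, background correction, filter or detection mark, no block, and leaving out each mouse.
Results of some named genes are not reported here.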

Additional observations from a re-analysis of the deposited data

Results flagged for a closer look

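Among the named genes, a mouse was set apart from the other 5 in 60 of 431 groups of 6 arrays (13.9%) by a gap to its neighbour over the critical share of the range that Dixon's test sets for 6 values, where chance sets apart about 1 group in 20. Genes of 1 sample share its RNA, its array and its scaling, so these groups are not independent.

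In blood, mouse 2 was apart for Sptb (-2.81), Ppbp (5.93), Treml1 (5.28), Gp1ba (2.16), Csf1r (5.97), Cd14 (-1.92), B2m (7.47), Canx (1.95), Nrgn (3.93), Clu (6.68), Mog (1.497), P2ry12 (1.68), Esam (0.79), Cd24a (8.70), Aldoa (6.67), Slc2a3 (3.87), Tubb1 (0.95), Rac1 (3.86), Vamp2 (0.68), Stx11 (2.50), Fermt3 (2.64), Rplp0 (9.73), Ywhaz (-0.64), Rps15 (9.47), Nipal3 (3.38), Cpe (-1.47), Ubl7 (2.54), Clps (3.79), Serpina1a (-1.06), Add1 (5.63), Car11 (-1.80), Syt11 (-0.47) and Actn4 (2.21). These are levels in log2 relative to the 75th percentile of the array. Other blood values apart were Epor (mouse 3, 0.18), Psmb10 (mouse 1, 4.58), Epb41l1 (mouse 3, -0.93) and Ndufa5 (mouse 6, 3.11).

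In mPFC, mouse 1 was apart for Canx (5.37), Snap25 (6.82), Cldn11 (3.24), Cnp (3.22), Sall1 (-1.55), Flt1 (3.104), Cd24a (-1.65), Epb41l3 (4.50), Trf (5.30), Snap29 (1.69), Car2 (3.76), Actn2 (-1.74) and Stx3 (-2.53). Other mPFC values apart were Slc4a1 (mouse 5, -3.40), Cd79a (mouse 6, 0.039), Alas1 (mouse 3, 4.26), Ank3 (mouse 6, -1.55), Slc4a4 (mouse 2, 2.12), Vamp3 (mouse 5, -1.59), Actb (mouse 2, 8.12), Psmc5 (mouse 4, 5.34), Rpl23a (mouse 2, 5.54) and Tspan7 (mouse 3, 7.54). Myelin and oligodendrocyte genes (Cnp, Cldn11 and Trf) were high in the mPFC of mouse 1, and platelet genes (Ppbp, Treml1, Gp1ba and Tubb1) low in the blood of mouse 2. What set these samples apart was not tested.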

How the results depend on the processing

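The mouse block, which pairs the arrays of 1 animal as the labels give it, had little effect on counts: without the replicate block the probes higher in blood were 16092, the probes higher in mPFC were 15686 and 5861 lay within 2-fold, and of the named genes only Banp lost its call (adjusted p = 0.0552). Leaving out each mouse in turn gave 15780 to 16103 probes higher in blood and 15336 to 15433 higher in mPFC. On the spike-in scale 7474 probes were higher in blood and 24514 in mPFC. Normexp correction put 9012 probes within 2-fold. Without the filter on dim probes 55681 probes were tested and 33617 were higher in blood, and with the 21814 probes detected on all 12 arrays 8757 were higher in mPFC. The mark for a positive and significant signal, in place of well above background, left 367 probes detected in blood only and 1492 probes detected in mPFC only. With a signal above 50 required as well, 14081 probes were detected on all 12 arrays and 510 in blood only. Counted as genes, the classes held 11779, 409 and 2042 members for all arrays, blood only and mPFC only. The causes of these shifts were not tested.

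List medians that changed sign on the spike-in scale were those of RT-qPCR reference (-2.17), known in blood and brain (-1.77), cytosolic ribosomal protein (-1.33), 14 genes the study took to patients (-1.15), exocrine pancreas (-1.08), monocyte (-0.67), choroid plexus (-0.36) and fat cell (-0.022). After normexp those of the RT-qPCR reference genes (-0.13) and of the genes known in blood and brain (-0.020) changed sign, and after quantile normalization that of the RT-qPCR reference genes (-0.38). The other alternatives changed the sign of no list median. Named genes with the sign turned on the spike-in scale were Sirt6 (-2.29), Prtn3 (-2.23), Nipal3 (-2.23), Vamp3 (-2.20), Camk2a (-2.18), Snap29 (-2.10), Clu (-2.10), Nrgn (-2.09), Rac1 (-2.04), Fcrls (-1.99), Arfrp1 (-1.93), Banp (-1.92), Stx3 (-1.80), C1qb (-1.80), Csf1r (-1.77), Eef1a1 (-1.69), Actn1 (-1.67), Snap25 (-1.66), Hk1 (-1.58), Slc2a3 (-1.52), Car4 (-1.45), Add3 (-1.43), Stxbp3 (-1.43), Psmd4 (-1.34), Cnp (-1.24), Rpl23a (-1.17), Fyco1 (-1.13), Rps2 (-1.13), Drd2 (-1.11), Ly6c1 (-1.04), Mog (-0.99), Cox7a1 (-0.86), Ank3 (-0.80), Rps29 (-0.75), Snap23 (-0.72), Lhx6 (-0.61), Csf3r (-0.58), Styxl1 (-0.58), Esam (-0.57), Gusb (-0.57), P2ry12 (-0.53), Siglech (-0.45), Actb (-0.28), Coro1a (-0.21) and Stxbp2 (-0.15). After normexp these were Nipal3 (-0.46), Camk2a (-0.27), Sirt6 (-0.21), Banp (-0.13), Csf1r (-0.02), Arfrp1 (-0.012), Cd14 (0.51), Hk2 (0.56), Saal1 (0.57), Epb41l2 (0.60), Kl (0.93), Amy2a5 (1.07) and Actn3 (1.24), and after quantile normalization Clu (-1.06), Prtn3 (-0.72), Hk1 (-0.43), Vamp3 (-0.41), Eef1a1 (-0.32), Rps29 (-0.13), Stx3 (-0.12), Snap25 (-0.098), Actb (-0.065), Coro7 (0.37), Id3 (0.38) and Stx7 (0.41). With the values of the authors' table no named gene changed its call. The dim blood arrays limit what could be detected there, so a gene not well above background in blood has only a bound.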
